A study of Mus musculus with 6 samples.

Results

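The Slc25 genes encode mitochondrial carriers, small membrane proteins that move metabolites, nucleotides, phosphate, cofactors and iron across the inner mitochondrial membrane. Members were taken as the genes whose symbol in the platform annotation begins with Slc25a, plus Ucp2, with 1 probe set (a group of array probes for 1 transcript region) for each gene. This gave 46 of the 19938 genes with a probe set of their own, covered by 50 probe sets. Ucp2, the uncoupling protein of immune cells, is not named alone by any probe set in the annotation used and was not analysed here. For a member with several, the brightest probe set on average was used.

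Expression was measured on 6 single-colour arrays of adherent cells from bone marrow cultures, and all 6 carried the genotype Spic(igfp/igfp). Marrow was grown with GM-CSF (20 ng/ml), which expands macrophages and dendritic cells. On day 6 the cultures received heme (80 µM, typed as µm in the labels) or its vehicle, salt with ammonium hydroxide, and were taken 6, 24 or 72 h later, with 1 array for each treatment and time. No control without the Spic alleles was among the samples, and the sources used here do not give what the igfp allele carries. The labels do not say how many mice or cultures stand behind an array.

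Carriers of this family share a fold of repeated units and are sent to the inner membrane by a dedicated import route. Slc25a37 (mitoferrin 1) and its paralog Slc25a28 (mitoferrin 2) bring iron into the matrix, where it is used for heme and iron-sulfur clusters. Slc25a38 supplies glycine for the first step of heme synthesis, and Slc25a39 and Slc25a40 import glutathione. In macrophages, mitochondria also supply citrate and redox shuttles through carriers such as Slc25a1, Slc25a12 and Slc25a10. Free heme is broken down to iron, carbon monoxide and biliverdin, so a heme load also raises the amount of iron a cell has to handle.

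Values are log2 levels. A level below 5.37, the median of all values in the table, was not shown to be above background. Of the 46 members, 34 reached that level on at least 1 array, and 12 did not: Slc25a2, Slc25a21, Slc25a23, Slc25a27, Slc25a29, Slc25a31, Slc25a33, Slc25a34, Slc25a41, Slc25a48, Slc25a53 and Slc25a54. Array medians ran from 5.34 to 5.45, with the highest on the 6 h heme array. Among markers of cell types, 7 of 7 measured macrophage genes lay above the level filter on every array. The counts were 4 of 8 for dendritic cell genes, 3 of 7 for fibroblast genes and 0 of 8 for erythroid genes. Levels of a list were summed on the linear scale and the sum is given as log2. The brightest genes weigh most in it, such as Lyz2 (12.92 to 13.18) among macrophage genes. Macrophage sums were 13.87 to 14.22 in vehicle and 13.98 to 14.32 with heme. Dendritic cell sums were 13.43 to 13.47 and 13.42 to 13.70, and fibroblast sums 8.69 to 9.29 and 8.41 to 9.71. With bulk RNA, a change in the share of a cell type and a change in RNA per cell cannot be told apart.

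Slc25a37, the iron importer, was higher with heme at all 3 times and was the only 1 of the 34 members tested to pass the test over the 3 time points. Slc25a37 (probe set 10421172) stood at 6.15, 6.19 and 6.39 on the vehicle arrays at 6, 24 and 72 h, and at 6.91, 7.24 and 7.71 with heme. The lowest heme value was above the highest vehicle value, so the groups did not overlap. The differences of 0.76, 1.06 and 1.32 correspond to 1.69-fold, 2.08-fold and 2.5-fold. Over the 3 time points Slc25a37 rose by 1.05 ± 0.28 (SD, n = 3 time points), with a 95% interval of 0.71 to 1.39 (limma, adjusted p = 0.0112). The other 33 members did not pass. Before adjustment, limma gave 4 members a p below 0.05 (11.8%, beside 10.6% of all genes): Slc25a37, Slc25a12, Slc25a32 and Slc25a44. Of all 11516 genes tested, 1.72% passed, and a count of 1 member does not set the family apart from that background. Nor do counts of 0 in the small role groups below.

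Time points stand in for replicates here, so the p-values rest on how differences varied between times, in this gene and, through limma's prior of 7.17 degrees of freedom beside 2 residual ones, over all genes. Without the 24 h pair of arrays the value for Slc25a37 was 1.04 but it did not pass (limma, adjusted p = 0.247), and with no term for time it did not pass either (limma, adjusted p = 0.179). Summed neutrophil markers, among them S100a8 and S100a9, had a log2 level of 12.93 with heme and 10.97 in vehicle at 24 h. They differed less at the other times (13.50 and 13.29 at 6 h, 10.65 and 10.03 at 72 h). Of the markers tested, the macrophage gene Cd14 (0.93, 1.40 and 0.95; limma, adjusted p = 0.00825) and Ccr7, a receptor of mature dendritic cells (0.86, 1.84 and 0.78; limma, adjusted p = 0.0279), passed and were higher with heme. The others of these lists did not pass and went both ways. The macrophage gene Fcgr1 was lower with heme without overlap (-0.52, -0.81 and -0.41; limma, adjusted p = 0.0999). Mertk, Cd68, Dpp4 and Itgax had mean differences of -0.20, -0.12, -0.18 and -0.08. Those of Csf1r, H2-Aa, Adgre1 and Cd74 were 0.28, 0.17, 0.15 and 0.09. The part of these markers in the rise of Slc25a37 was not tested. All 8 neutrophil markers measured reached the level filter on at least 1 array, and 3 on every array. The erythroid markers measured, a lineage in which Slc25a37 is abundant, were below the level filter on all 6 arrays, with summed levels of 7.60 to 7.67 in vehicle and 7.61 to 7.86 with heme.

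On the probe sets used, the other iron, heme and glutathione carriers gave small differences that changed sign between times. Slc25a28 stood at 7.05, 6.97 and 7.08 in vehicle and at 6.89, 7.15 and 7.27 with heme, with a mean difference of 0.07 ± 0.20 and an interval of -0.25 to 0.39 (limma, adjusted p = 0.931). Slc25a38 stood at 6.37, 6.30 and 6.34 in vehicle and at 6.44, 6.59 and 6.15 with heme (limma, adjusted p = 0.951). It was higher with heme at 24 h and lower at 72 h, and its interval ran from -0.27 to 0.39. Slc25a39 stood at 8.19, 8.08 and 8.29 in vehicle and at 7.90, 8.28 and 7.94 with heme, an interval of -0.49 to 0.20 (limma, adjusted p = 0.863). The heme and vehicle arrays overlapped for these 3 genes. Slc25a40 differed by -0.17, 0.06 and -0.07, and on another probe set, which was not used, by -0.32, -0.08 and -0.13.

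The effect on Slc25a37 was larger than that on Slc25a28 at each time, by 0.92, 0.87 and 1.13 at 6, 24 and 72 h. The mean of this difference between the mitoferrin genes was 0.97 ± 0.14 (SD, n = 3; exact sign-flip permutation test, two-sided, p = 0.25). The means against Slc25a38, Slc25a39 and Slc25a40 were 0.99 ± 0.46, 1.19 ± 0.42 and 1.10 ± 0.25. With 3 time points 0.25 is the smallest p this exact test can give, so it cannot reach 0.05, and the adjusted value over the 4 pairs is also 0.25.

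**Figure D1:**
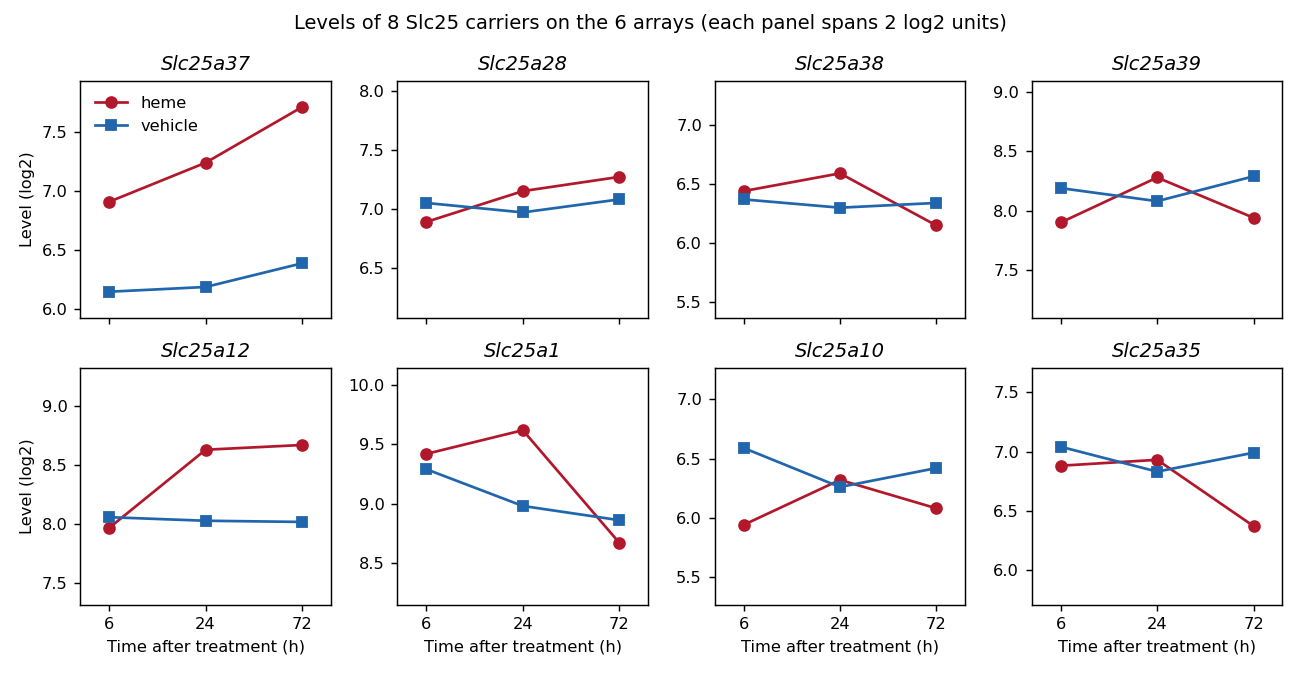
Log2 level of 8 Slc25 genes (y axis, each panel 2 log2 units high) against time after treatment in hours (x axis), with heme as circles and vehicle as squares, 1 array per point and no error bars. Slc25a37 is higher with heme at all 3 times, from 6.91 against 6.15 at 6 h to 7.71 against 6.39 at 72 h; Slc25a12 separates only at 24 and 72 h.

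Promoters of 4 of the 5 iron, heme and glutathione carriers are shown, because this group holds the carrier that passed the test. The promoter of Slc25a37 itself was not analysed here. Each line runs from 150 bases before to 10 after the RefSeq start of the gene, 5′ to 3′ on the strand of the gene, in build GRCm38.p6. Capitals mark a match to TGACNNNGC, the core of the element read by NRF2 and BACH1, on either strand.
Slc25a28 (chr19:43674872-43675031, minus strand): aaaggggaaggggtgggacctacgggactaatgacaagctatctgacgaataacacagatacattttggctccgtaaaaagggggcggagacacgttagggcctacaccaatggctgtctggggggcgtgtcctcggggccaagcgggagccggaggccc
Slc25a38 (chr9:120110232-120110391, plus strand): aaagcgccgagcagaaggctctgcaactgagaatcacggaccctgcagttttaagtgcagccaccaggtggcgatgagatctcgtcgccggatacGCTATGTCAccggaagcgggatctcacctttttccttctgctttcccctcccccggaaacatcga
Slc25a39 (chr11:102407508-102407667, minus strand): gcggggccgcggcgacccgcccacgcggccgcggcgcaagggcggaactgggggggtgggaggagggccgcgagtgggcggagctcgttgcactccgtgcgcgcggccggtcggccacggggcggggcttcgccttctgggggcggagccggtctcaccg
Slc25a40 (chr5:8422688-8422847, plus strand): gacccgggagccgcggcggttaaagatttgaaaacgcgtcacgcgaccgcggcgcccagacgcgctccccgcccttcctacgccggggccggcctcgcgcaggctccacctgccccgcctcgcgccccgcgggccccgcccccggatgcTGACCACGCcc

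Slc25a38 holds 1 match, which begins 55 bases before its start, and Slc25a40 holds 1 that spans its start. Slc25a28 and Slc25a39 hold none in these stretches. Over windows from 250 bases before to 50 after the start, 36 of the 46 members, Slc25a37 not among them, matched an entry by gene identifier. TGACNNNGC was found on either strand in 9 of the 36 (25.0%), among them Slc25a3, Slc25a5 and Slc25a25, against 14.0% of all 27025 genes with an entry. Of members above the level filter it was in 6 of 27 (22.2%), against 16.7% of the 9269 genes above the filter. The E-box CACGTG was found in 7 of 36 (19.4%), among them Slc25a1, Slc25a13 and Slc25a36, against 8.09% of all genes. Above the filter it was in 5 of 27 members (18.5%), against 11.7% of genes. NRF1 letters (GCATGCGC) were found in 2 members (5.56%), Slc25a31 and Slc25a54, against 3.05% of all genes, and above the filter in 0 of 27, against 5.93%. The ERR and ATF4 elements (TCAAGGTCA and TTGCATCA) were found in 0 members and in 0.466% and 1.03% of all genes. Matches of different motifs did not overlap in these windows. Median GC content was 59.3% in member windows, 60.3% in windows of genes above the filter and 52.7% in all windows. A match only says that the letters are present.

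Among amino acid and carnitine carriers, 0 of the 9 above the level filter passed. Slc25a12 (aralar), an aspartate/glutamate exchanger of the malate-aspartate shuttle, stood at 8.06, 8.03 and 8.02 in vehicle and at 7.97, 8.63 and 8.67 with heme. The heme arrays were higher at 24 h and 72 h (1.51-fold and 1.56-fold) and close to vehicle at 6 h. Its mean difference was 0.39 ± 0.41 (limma, adjusted p = 0.467). It passed only when the 6 h pair was left out, with a value of 0.62 (limma, adjusted p = 0.0289), in a fit with 1 residual degree of freedom and a prior of 46.9. Its paralog Slc25a13 (citrin) differed by 0.07, 0.04 and -0.12.

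Slc25a44, a carrier of branched-chain amino acids, stood at 7.97, 7.88 and 7.60 in vehicle and at 7.44, 7.53 and 7.49 with heme (limma, adjusted p = 0.457). All 3 heme arrays lay below all 3 vehicle arrays. Slc25a20, the carnitine/acylcarnitine carrier that brings fatty acids in for oxidation, differed by -0.48, -0.08 and -0.14. The glutamate carriers Slc25a18 and Slc25a22 differed by 0.54, 0.04 and -0.10 and by -0.01, -0.02 and -0.19. The ornithine carrier Slc25a15 had a range of 0.18 over the 6 arrays, and Slc25a45 and Slc25a47 had mean differences of 0.15 and -0.12. Slc25a47 lay below the level filter on 5 arrays.

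Of carboxylate carriers, 0 of 3 above the filter passed, and both members that reached 1.5-fold did so at a single time. Slc25a1, the citrate carrier that feeds fatty acid and sterol synthesis in the cytosol, stood at 9.29, 8.98 and 8.86 in vehicle and at 9.42, 9.62 and 8.67 with heme. It was 1.55-fold higher with heme at 24 h but slightly lower at 72 h, and its interval was -0.20 to 0.58 (limma, adjusted p = 0.831). Slc25a10, the dicarboxylate carrier, stood at 6.59, 6.26 and 6.42 in vehicle and at 5.94, 6.32 and 6.08 with heme. It was 1.57-fold lower with heme at 6 h (limma, adjusted p = 0.598). The oxoglutarate carrier Slc25a11 differed by -0.37, 0.22 and 0.07.

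Adenine nucleotide and phosphate carriers supply oxidative phosphorylation, and 0 of the 5 above the filter passed. The phosphate carrier Slc25a3 stayed between 9.48 and 9.59 on all 6 arrays, the smallest range of the 34 members (0.11). The ADP/ATP exchanger Slc25a4 differed by -0.25, 0.23 and 0.16, and Slc25a5 by -0.37, -0.01 and -0.32 (limma, adjusted p = 0.67). Slc25a5 has 3 probe sets annotated to the same transcripts, and near-identical copies elsewhere in the genome can share its probes, so its values are uncertain. The other probe sets differed by -0.33, -0.05 and -0.33 and by -0.25, -0.19 and -0.33, negative at every time in all 3. The ATP-Mg/phosphate carriers Slc25a24 and Slc25a25 had mean differences of -0.03 and 0.03.

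For cofactor and nucleotide carriers, 0 of 7 passed. Slc25a32, a folate carrier, stood at 6.80, 6.75 and 7.06 in vehicle and at 6.43, 6.46 and 6.72 with heme. All heme arrays were lower, and the difference hardly varied with time (-0.33 ± 0.03; limma, adjusted p = 0.383). Slc25a26, which imports S-adenosylmethionine, stood at 6.28, 6.21 and 6.30 in vehicle and at 6.30, 6.44 and 6.67 with heme (limma, adjusted p = 0.728). Its lowest heme value and highest vehicle value were equal at 2 decimals. The peroxisomal Slc25a17 differed by -0.40, 0.23 and 0.20, Slc25a16 by -0.32, -0.05 and 0.01, the coenzyme A carrier Slc25a42 by -0.19, 0.29 and -0.04, and the NAD carrier Slc25a51 by -0.22, -0.09 and -0.03. Slc25a36, a pyrimidine nucleotide carrier, has 2 probe sets that disagreed in sign, with differences of -0.13 and 0.06 at 24 h and of 0.24 and -0.12 at 72 h.

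The uncoupling protein relatives Slc25a14 and Slc25a30 had mean differences of -0.10 and 0.04. Among the remaining carriers, Slc25a35 stood at 7.04, 6.83 and 6.99 in vehicle and at 6.88, 6.93 and 6.37 with heme. Only its 72 h heme array was low, 1.54-fold below vehicle (limma, adjusted p = 0.759). Slc25a43 differed by 0.25, -0.02 and -0.42. Slc25a46, an outer membrane protein that acts in mitochondrial dynamics, had a mean difference of -0.16, with all heme arrays below all vehicle arrays.

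Counted over the family in either direction, 2, 3 and 3 of 34 members reached 1.5-fold at 6, 24 and 72 h. At 6 h, 1 of 34 was higher (Slc25a37) and 1 lower (Slc25a10), beside 3.36% and 6.89% of all genes above the filter. At 24 h, 3 were higher (Slc25a37, Slc25a1 and Slc25a12) and 0 lower, beside 3.7% and 2.83%. At 72 h, 2 were higher (Slc25a37 and Slc25a12) and 1 lower (Slc25a35), beside 4.21% and 2.67%. These differences rest on 1 array on each side and have no test. All heme arrays lay above all vehicle arrays for 2 members (Slc25a37 and Slc25a26), and below for 3 (Slc25a32, Slc25a44 and Slc25a46), beside 5.4% and 5.85% of all genes.

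More members lay below 0 than above it at 6 h. Of 34 members 25 had a negative difference at 6 h (73.5%, against 63.5% of all genes), 13 at 24 h (38.2%, against 53.2%) and 18 at 72 h (52.9%, against 44.7%). Median member differences were -0.16, 0.04 and -0.04 in order of time, beside -0.10, -0.02 and 0.03 over all genes. Median-centring moved the 6 h median of all genes to -0.22 and that of the members to -0.28. For 26 members (76.5%) the difference was higher at 24 h than at 6 h, as for 60.5% of all genes. The difference between time points could not be tested with 1 array per treatment and time.

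**Figure D2:**
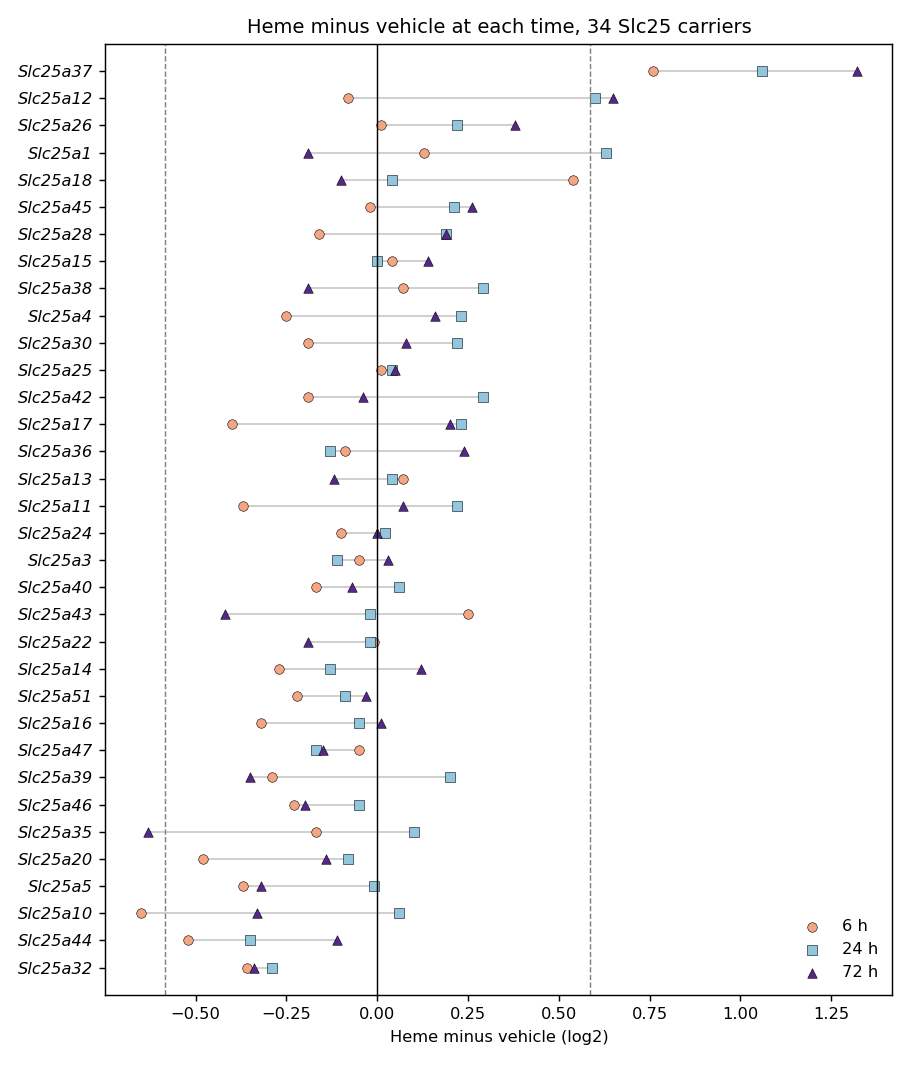
Heme minus vehicle (x axis, log2) at 6, 24 and 72 h for the 34 members above the level filter (y axis, ordered by mean difference), 1 point per time, with dashed lines at 1.5-fold and a grey line spanning the 3 times. Slc25a37 lies to the right of the upper dashed line at all 3 times, and 25 of 34 points for 6 h lie left of 0.

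With time in culture the family moved little in vehicle. No member changed by 1.5-fold in vehicle, from 6 to 24 h or from 6 to 72 h, where 6.18% and 11.8% of all genes did. With heme, 4 of 34 changed from 6 to 24 h and 5 from 6 to 72 h, beside 13.3% and 17.8% of all genes. The first 4 were Slc25a11 (0.73), Slc25a20 (0.67), Slc25a17 (0.66) and Slc25a12 (0.66). The other 5 were Slc25a37 (0.80), Slc25a20 (0.76), Slc25a12 (0.69), Slc25a1 (-0.75) and Slc25a43 (-0.91). Both changes with heme start from the 6 h heme array, which had the highest median.

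Over both treatments, 0 members passed for 72 h against 6 h, where 6.59% of all genes did, and 0 for 24 h against 6 h, where 0.599% did. Before adjustment, 6 and 2 members had a limma p below 0.05 (17.6% and 5.88%), beside 18.5% and 12.9% of all genes. Both tests share the 6 h arrays. With 1 array per treatment and time, the treatments stand in for replicates in them. The p-values for time rest on how much the change differed between heme and vehicle, and on limma's prior over all genes. Slc25a20 came closest, with vehicle levels of 6.77, 7.04 and 7.19 and heme levels of 6.29, 6.96 and 7.05 in order of time. Its shared change to 72 h was 0.59 (limma, adjusted p = 0.0898). Over the same span, the summed level of markers of dividing cells went from 10.72 to 8.74 in vehicle and from 10.25 to 8.65 with heme, and that of neutrophil markers from 13.29 to 10.03 and from 13.50 to 10.65. Their part in these changes was not tested. The median SD over the 6 arrays was 0.17 for members and 0.19 for all genes.

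**Figure D3:**
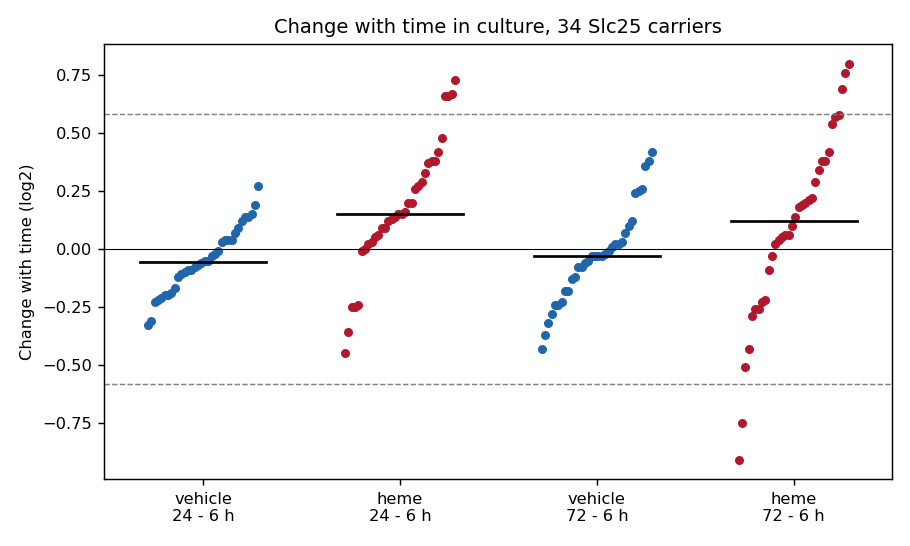
Change in log2 level from 6 h to 24 h and from 6 h to 72 h (y axis) in vehicle and in heme cultures (x axis), 1 point per member (34), sorted within each column, with the median as a bar and dashed lines at 1.5-fold. All vehicle points lie between the dashed lines, from -0.43 to 0.42, whereas heme points run from -0.91 to 0.80.

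Genes that work beside these carriers were counted the same way. Of 60 such genes listed, 53 were measured by symbol and 48 lay above the level filter. Of these 48, 0 passed the test of heme against vehicle, beside 1.72% of all genes, so the count does not set them apart. Before adjustment, 2 of them, Sfxn5 and Abcb6, had a limma p below 0.05 (4.17%, beside 10.6% of all genes). Median differences of the 48 were -0.21, -0.06 and -0.08 at 6, 24 and 72 h, beside -0.10, -0.02 and 0.03 over all genes. At 6 h, 39 were negative (81.2%, against 63.5% of all genes), with 29 at 24 h (60.4%, against 53.2%) and 28 at 72 h (58.3%, against 44.7%). At 6 h, 8 were at least 1.5-fold lower and 0 higher, beside 6.89% and 3.36% of all genes. At 24 h, 1 was higher and 0 lower, beside 3.7% and 2.83%, and at 72 h 1 and 0, beside 4.21% and 2.67%. These differences rest on 1 array on each side and have no test. Sfxn5, a sideroflexin of the inner membrane, differed by 0.32, 0.67 and 1.19 (limma, adjusted p = 0.0973). Abcb6 differed by 0.03, 0.57 and 0.55 (limma, adjusted p = 0.393), and lay below the level filter on 2 arrays. All heme arrays lay above all vehicle arrays for 2 of the 48 (Sfxn5 and Abcb6; 4.17%, beside 5.4% of all genes). They lay below for 4 (Abcb8, Timm10, Nfs1 and Isca1), or 8.33%, beside 5.85% of all genes. Abcb10, a partner of Slc25a37 in erythroid cells, differed by -0.76, 0.11 and -0.29, and Tmem14c, which acts in porphyrin transport, by -0.79, 0.12 and -0.30. Iscu, the scaffold of iron-sulfur clusters, differed by -0.87, 0.08 and 0.26, Alas1, the first enzyme of heme synthesis, by -0.28, 0.54 and -0.32, and Lyrm4 by -0.22, 0.19 and 0.49.

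Import factors that deliver carriers to the inner membrane had mean differences of -0.31 for Timm10, -0.28 for Timm22 and -0.09 for Timm13. In order of time, Timm10 differed by -0.72, -0.15 and -0.06, Timm22 by -0.43, -0.18 and -0.22, and Timm13 by -0.38, 0.27 and -0.16. The mitochondrial transcription factors Tfam and Tfb2m and the nuclear receptor Esrra differed by -0.60, -0.46 and -0.27 at 6 h. They differed by -0.24, -0.13 and 0.24 at 24 h and by 0.00, 0.30 and -0.30 at 72 h. Of carrier relatives without an Slc25a symbol, Mtch1 and Mtch2 had mean differences of -0.20 and -0.19, and Ucp3, below the level filter on 5 arrays, of -0.15.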

How the data were processed

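Expression was deposited as log2 values, which the authors obtained with RMA and quantile normalization (ArrayStar), per the submitters' processing notes and design text. RMA summarises several probes into 1 value and compresses differences of dim probe sets. No tool version was stated, and scanner files were not analysed here. Of 35556 probe sets, 21789 named 1 gene and were used. A gene needed 1 array at or above 5.37, the median over the table, to be tested (11516 genes).

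Heme and vehicle were compared in limma 3.58.1 (R 4.3.3; lmFit and eBayes, two-sided) on the 6 arrays, in a model of treatment plus time that has 2 residual degrees of freedom, with Benjamini-Hochberg adjustment over all genes kept. Time coefficients came from the same fit. With 1 array per treatment and time, an interaction could not be tested, and single times were described by a 1.5-fold threshold. The time points in the labels pair the arrays: deviations from treatment means correlated by 0.562, 0.215 and 0.531 at 6, 24 and 72 h. The fit was tested on simulated data. Alternatives were 3 other scalings (cyclic loess, median-centring or repeated quantile normalization), level filters, probe set means, an offset of 16, robust or trended eBayes, a fit without time, a 2-fold threshold and leaving out each pair.

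Named in full were Slc25a37, Slc25a28, Slc25a38, Slc25a39, members past a test and members at 1.5-fold or more at any time; of each related list, the 3 with the largest mean absolute difference. Other values, such as those of Slc25a32, Slc25a44, Slc25a26, Slc25a20, Abcb6 and single cell type markers, were chosen after they were seen. The members and lists were chosen with earlier results of these data known. Promoter sequences are from RefSeq (GRCm38.p6). The number of arrays limits the precision.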

Additional observations from a re-analysis of the deposited data

How the results depend on the processing

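Slc25a37 was higher with heme under all 13 alternatives (0.91 to 1.19) and passed in 11 of them. All of them reuse the same 6 arrays. Other level filters, probe set means, other eBayes options and the fit without time could not change its value of 1.045, only its p-value. It has 1 probe set, and each time point holds both treatments. With no term for time, Slc25a37 had an adjusted p of 0.179 (limma), 0 members passed, and 18 genes in all passed in place of 198. Leaving out 1 pair of arrays gave 0.908 to 1.188 for Slc25a37, 0 to 2 members and 12 to 521 genes; the low counts came without the 24 h pair and the high ones without the 6 h pair. The same fits gave -0.060 to 0.181 for Slc25a38 and -0.031 to 0.380 for Slc25a1, both negative without the 24 h pair, and the cause was not tested. For 24 h against 6 h over both treatments, 69 genes passed, but 167 after median-centring, 23 after cyclic loess, 109 with the mean of probe sets and 104 with robust eBayes; 0 members passed under any of these. A 2-fold threshold left 0, 1 and 1 members at 6, 24 and 72 h in place of 2, 3 and 3. At 6 h, 4 members reached 1.5-fold after median-centring, where the member median was -0.278, and 1 with an offset of 16 on the linear scale.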

Other observations

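Among the 12 members that stayed below the level filter, Slc25a27, a brain uncoupling protein relative, was at 5.19 on the 6 h heme array and between 4.27 and 4.81 on the other arrays. Slc25a33, a pyrimidine nucleotide carrier that responds to insulin-like growth factor, was at 5.19 on the 24 h heme array and between 4.46 and 4.88 on the others. None of these levels was shown to be above background, so the differences have no size.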
